A study of Mus musculus with 6 samples.

Results

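The Prdm genes encode transcription regulators with a PR domain, a relative of the SET domain of histone methyltransferases, in most members followed by zinc fingers that bind DNA. They were examined here in retinas of newborn mice that were Cyclin D1 -/- or wildtype. The genes listed were Prdm1, Prdm2, Prdm4, Prdm8, Prdm10, Prdm13 and Prdm16, and every probe set annotated to 1 of these symbols and no other was taken. This gave 13 probe sets of 34945 with a single gene symbol, for 6 of the 7 genes and of 18193 named genes. No probe set was annotated to Prdm13 here, so the gene has no value below. The genes were chosen by their place in the family and by the measured difference between the genotypes, Prdm8 being among the large falls. That difference is therefore given for them as a description, without p-values.

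Retinas were dissected at birth and pooled, with 3 numbered pools for each genotype and 1 Affymetrix array for each pool. The labels give no strain, no number of animals per pool and no agent or allele other than the loss of cyclin D1, a subunit of the kinases that drive cells into S phase, and they do not restrict that loss to the retina. Nothing says whether pools shared litters, so an SD or p-value measures the spread between these pools. The comparison addresses which genes, cyclin D1 targets among them, change when the protein is lost, and its binding sites were not used here.

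Several Prdm proteins are known regulators of retinal neuron fate in the mouse. Prdm1, also called Blimp1, promotes photoreceptor fate in newborn precursors and restrains the bipolar programme. Prdm13 acts after Ptf1a in amacrine cell specification, and Prdm8, which pairs with the factor Bhlhe22 in neurons, is needed for the development of some bipolar cells and is also found in amacrine cells. Prdm16, known for the brown fat programme, is active in neural stem cells. Prdm2 methylates histone H3 and binds the retinoblastoma protein, Prdm4 works with the arginine methyltransferase Prmt5, and Prdm10 is a widely expressed DNA-binding regulator.

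The median deposited signal of an array was 44.5 to 49.5 units in Cyclin D1 -/- pools and 40.6 to 50.5 units in wildtype pools. Precision is limited by the 3 arrays of each genotype. A level is log2 of the normalised signal plus 16, a mean comes with the SD over 3 pools, and a difference is Cyclin D1 -/- minus wildtype. Ccnd1, which encodes cyclin D1, averaged 8.86 ± 0.06 in Cyclin D1 -/- pools and 12.45 ± 0.10 in wildtype pools, and no pool went against its label. In both genotypes pools 1 and 2 formed the closest pair, with an SD of the log2 difference of 0.21 in Cyclin D1 -/- and 0.22 in wildtype pools, against 0.28 to 0.52 for other pairs of arrays. Spiked-in hybridisation controls were brighter on Cyclin D1 -/- pools 1 and 2 and wildtype pool 3 than on the other arrays. Differences within the brighter and the dimmer arrays are given where they bear on a value, and each rests on a lone array of one genotype. Neural retina markers were present in all pools, with 10 measured genes that held 0.121% to 0.127% of the signal in Cyclin D1 -/- pools and 0.118% to 0.123% in wildtype pools.

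Prdm8 was far lower without cyclin D1. Its only probe set read 5.77, 5.70 and 6.09 in Cyclin D1 -/- pools 1, 2 and 3, against 7.44, 7.20 and 7.002 in wildtype pools 1, 2 and 3. The highest Cyclin D1 -/- pool lay below the lowest wildtype pool by more than the spread within either genotype. The deposited signal was 40.4, 38.6 and 50.8 units in Cyclin D1 -/- pools and 155, 122 and 112 units in wildtype pools, and the groups were apart in these values too. The Cyclin D1 -/- signals lie near the medians of their arrays, and how far they stand above background could not be judged. The log2 difference was -1.36 (SE 0.17), 2.57-fold lower on the scale of signal plus 16, and was -1.27 within the brighter and -1.23 within the dimmer arrays. In tissue RNA, fewer cells of a type and less RNA per cell cannot be told apart.

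**Figure D1:**
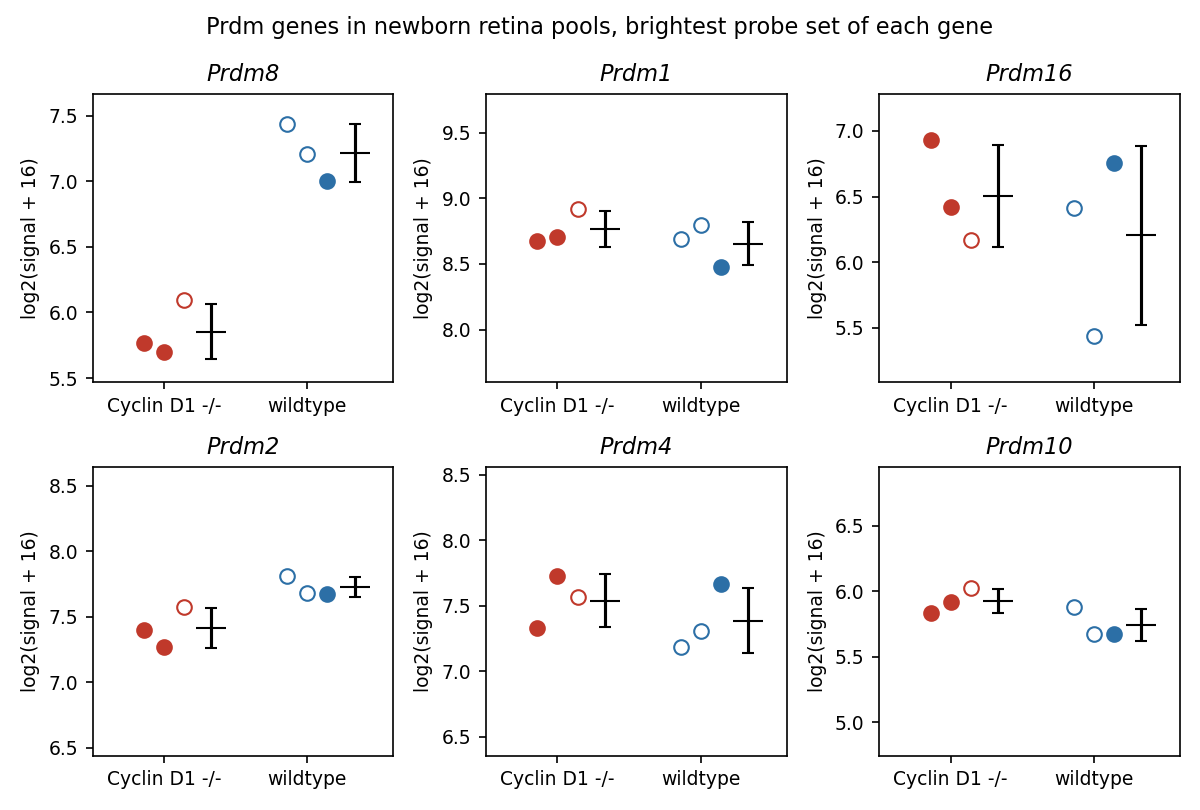
Levels of 6 Prdm genes, as log2 of normalised signal plus 16, in the 3 Cyclin D1 -/- pools (left, red) and the 3 wildtype pools (right, blue), brightest probe set of each gene. Filled points are arrays with brighter hybridisation controls, bars are mean ± SD, and all panels span the same log2 range. The Prdm8 groups lie furthest apart, and the Prdm2 groups lie apart by a small gap.

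The promoters of Prdm8 and Prdm1 are shown because Prdm8 had the widest gap between genotypes and Prdm1 had overlapping groups after normalisation. Each is the 250 bases before the annotated start site in RefSeq on GRCm38.p6, written 5′ to 3′ on the gene's own strand, with capitals marking E-boxes, the CANNTG sites that Ptf1a and other basic helix-loop-helix factors can bind. The Prdm8 window is chr5:98180619-98180868 on the plus strand and the Prdm1 window is chr10:44458749-44458998 on the minus strand.
Prdm8: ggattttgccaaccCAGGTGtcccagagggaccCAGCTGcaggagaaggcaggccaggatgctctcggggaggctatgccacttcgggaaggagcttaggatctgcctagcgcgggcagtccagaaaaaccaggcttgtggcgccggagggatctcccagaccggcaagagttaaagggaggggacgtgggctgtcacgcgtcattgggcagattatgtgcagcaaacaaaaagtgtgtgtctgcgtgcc
Prdm1: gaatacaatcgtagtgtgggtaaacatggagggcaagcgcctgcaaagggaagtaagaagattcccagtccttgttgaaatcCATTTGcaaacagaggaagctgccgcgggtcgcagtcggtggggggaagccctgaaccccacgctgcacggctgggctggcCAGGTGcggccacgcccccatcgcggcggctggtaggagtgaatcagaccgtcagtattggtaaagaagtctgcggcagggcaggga
Both windows hold 2 E-boxes, those of Prdm8 starting 236 and 217 bases before the start site and those of Prdm1 168 and 87 bases before it. CANNTG reads the same on both strands, and 66.2% of all 32851 promoter windows of this length hold at least 1, so its presence sets neither gene apart. TTNGCGC, the core of E2F sites, was searched on both strands and is in none of the 8 windows found for 6 of the 7 genes, as against 5.19% of all windows. GAAAG, the core of Prdm1 sites, is in neither window shown and in 51.5% of all windows on either strand. A match is a description of the sequence only.

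Prdm1 showed no separation of the genotypes after normalisation. Its probe set read 8.67, 8.70 and 8.92 in Cyclin D1 -/- pools 1, 2 and 3, against 8.69, 8.80 and 8.48 in wildtype pools 1, 2 and 3. Cyclin D1 -/- pool 3 was highest and wildtype pool 3 lowest, and the other 4 pools overlapped. The log2 difference was 0.11 (SE 0.12), with 0.21 within the brighter and 0.18 within the dimmer arrays, and leaving out wildtype pool 3 brought it to 0.02. With values as deposited it was 0.27, while the median of all tested genes was 0.13 in those values against 0.02 after normalisation. The deposited signal was 399, 457 and 478 units in Cyclin D1 -/- pools 1, 2 and 3. In wildtype pools it was 391, 390 and 317 units, so the groups were apart before normalisation. The summed signal of 16 lens markers was also highest in Cyclin D1 -/- pool 3 and lowest in wildtype pool 3: it held 0.438%, 0.418% and 1.14% of the array signal in Cyclin D1 -/- pools 1, 2 and 3 and 0.148%, 0.151% and 0.0547% in wildtype pools 1, 2 and 3. All 16 lens genes were tested and 13 of them were called higher, beside 2.03% of all tested genes. This count was not followed through the alternatives. Blood, vessel and immune markers held 0.0261% to 0.0282% of the signal in Cyclin D1 -/- pools and 0.0270% to 0.0293% in wildtype pools over 15 genes. Of these 15, 11 were too dim to test. Kdr was the brightest and weighs most in the sum, at 10.10 in Cyclin D1 -/- and 10.11 in wildtype pools. Of the 4 tested, 2 had a log2 difference above 0 and 2 below. They ran from -0.79 for Cldn5, whose groups were apart, to 0.41, and none was called, beside 4.66% of all tested genes. Pigment epithelium markers held 0.0220% to 0.0275% in Cyclin D1 -/- pools and 0.0204% to 0.0293% in wildtype pools over 11 genes. The part of these tissues in the Prdm1 values was not tested.

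Prdm16 varied more between pools of one genotype than between genotypes, and its 4 probe sets split into unlike pairs. The brightest read 6.93, 6.42 and 6.17 in Cyclin D1 -/- pools 1, 2 and 3, against 6.41, 5.44 and 6.76 in wildtype pools 1, 2 and 3. The second, made from the same source sequence, read 6.63, 6.65 and 6.15 in Cyclin D1 -/- pools, against 5.61, 5.22 and 6.43 in wildtype pools. In both, the 3 arrays with brighter hybridisation controls stood above the other 3, whatever the genotype. For the brightest probe set this was nearly a tie, with 6.42 in Cyclin D1 -/- pool 2 against 6.41 in wildtype pool 1. The log2 differences of this pair were 0.30 (SE 0.45) and 0.72 (SE 0.39). Within the brighter arrays they were -0.08 and 0.21, and within the dimmer arrays 0.24 and 0.73. Without wildtype pool 2 the first turned to -0.08, and without wildtype pool 3 it was 0.58.

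The other pair of Prdm16 probe sets was dimmer and did not follow the hybridisation controls. One read 5.00, 5.37 and 5.97 in Cyclin D1 -/- pools 1, 2 and 3, against 5.34, 5.37 and 4.95 in wildtype pools, and the other 5.29, 5.21 and 5.83 against 4.68, 5.43 and 4.81. In this pair Cyclin D1 -/- pool 3, a dim-control array, was the highest of all. Their log2 differences were 0.23 (SE 0.31) and 0.47 (SE 0.30), and the first of them was -0.04 without Cyclin D1 -/- pool 3. All 4 Prdm16 probe sets had a higher mean in Cyclin D1 -/- pools, and in all 4 the genotypes overlapped.

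**Figure D2:**
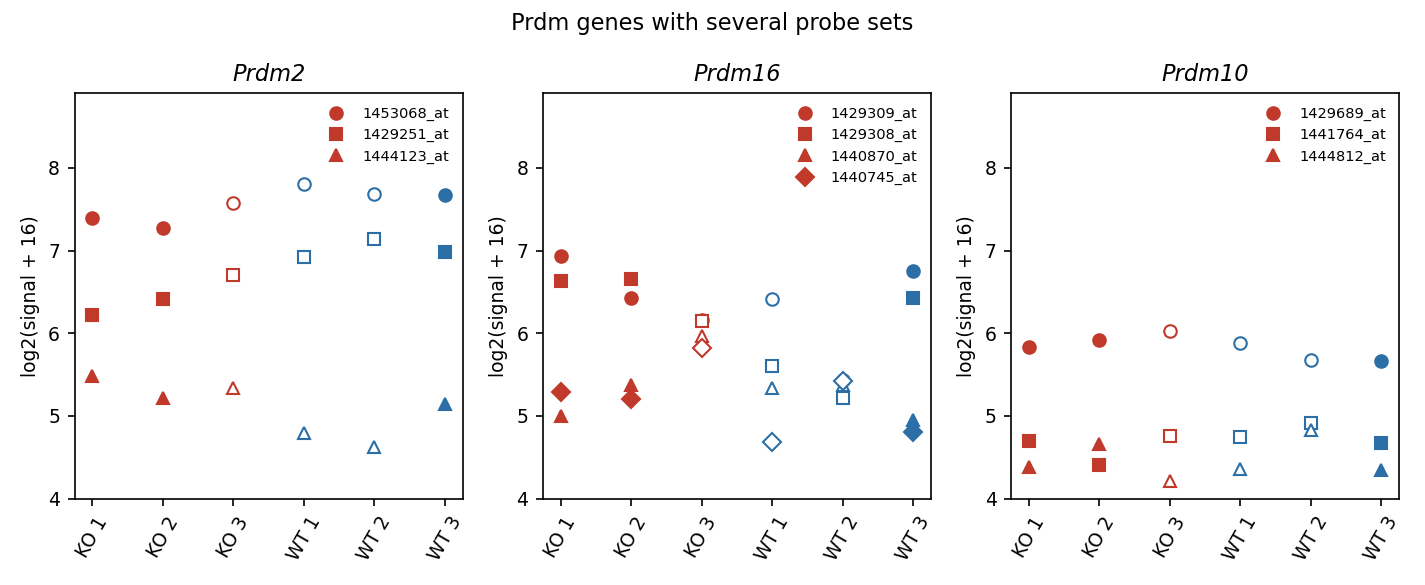
Levels of each probe set of Prdm2, Prdm16 and Prdm10, as log2 of normalised signal plus 16, in the 3 Cyclin D1 -/- pools (red) and 3 wildtype pools (blue). Filled symbols are arrays with brighter hybridisation controls. The Prdm2 probe sets part in opposite directions, and the upper pair of Prdm16 probe sets is high on filled arrays of both genotypes.

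Prdm2 was lower without cyclin D1 in 2 of its 3 probe sets and higher in the third. The brightest read 7.40, 7.27 and 7.57 in Cyclin D1 -/- pools 1, 2 and 3, against 7.81, 7.68 and 7.68 in wildtype pools 1, 2 and 3. The next, from the same source sequence, read 6.22, 6.42 and 6.71 in Cyclin D1 -/- pools, against 6.92, 7.15 and 6.98 in wildtype pools. In both, every Cyclin D1 -/- pool lay below every wildtype pool, and Cyclin D1 -/- pool 3 came closest to wildtype. As deposited, the brightest probe set overlapped, with 178.4 units in Cyclin D1 -/- pool 3 against 177.5 units in wildtype pool 2. The log2 differences were -0.31 (SE 0.10) and -0.57 (SE 0.16), with -0.34 and -0.66 within the brighter and -0.17 and -0.33 within the dimmer arrays. The dimmest probe set, from another source sequence, read 5.48, 5.22 and 5.33 in Cyclin D1 -/- pools and 4.79, 4.63 and 5.15 in wildtype pools. There the groups were also apart, with the Cyclin D1 -/- pools above, and the log2 difference was 0.49 (SE 0.17), with 0.20 within the brighter and 0.63 within the dimmer arrays. The mean over the 3 probe sets differed by -0.13, so the direction of Prdm2 depends on the probe set read.

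Prdm4 and Prdm10 differed little. Prdm4 read 7.33, 7.73 and 7.56 in Cyclin D1 -/- pools, against 7.19, 7.31 and 7.66 in wildtype pools, with overlapping groups and a log2 difference of 0.15 (SE 0.18). Within the brighter arrays the difference was -0.14 and within the dimmer arrays 0.32, so the direction was not the same in both. Prdm10 was among the 40% of genes left untested for low signal. Its brightest probe set read 5.84, 5.92 and 6.02 in Cyclin D1 -/- pools, against 5.88, 5.68 and 5.67 in wildtype pools, a log2 difference of 0.18 (SE 0.09). After normalisation only wildtype pool 1 reached into the Cyclin D1 -/- range there. As deposited the groups were apart, with 43.2, 47.8 and 47.5 units in Cyclin D1 -/- pools against 39.7, 31.0 and 39.1 units in wildtype pools. The other 2 probe sets, with means of 4.42 to 4.78 in either genotype, had log2 differences of -0.16 (SE 0.13) and -0.09 (SE 0.20).

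**Figure D3:**
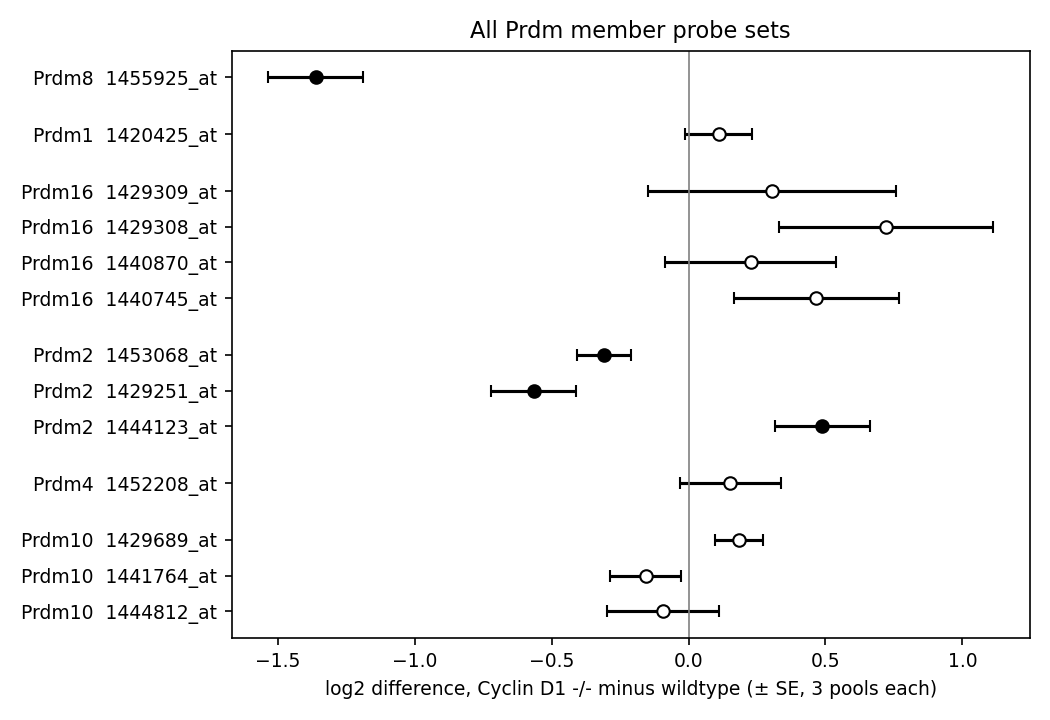
Log2 difference, Cyclin D1 -/- minus wildtype, of all 13 Prdm probe sets with its SE (3 pools of each genotype). Filled points are probe sets whose genotypes do not overlap after normalisation. Prdm8 stands at -1.36, and the filled points of Prdm2 lie on both sides of 0.

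Of the 13 probe sets, 8 had a higher and 5 a lower mean in Cyclin D1 -/- pools. After normalisation the genotypes did not overlap in 4, beside 14.6% of all named probe sets. In 3 of them Cyclin D1 -/- was lower, beside 7.23% of all, and in 1 it was higher, beside 7.41%. Of the 6 measured genes 5 passed the filter on low signal, and in the fit over 10916 genes 1 of them, Prdm8, was called at the labels' false discovery rate of 0.1, beside 4.66% of all tested genes. It was a fall, beside 2.63% of genes called lower, and no member was called higher, beside 2.03%. Over all genes 222 were called higher and 287 lower, but 416 higher and 176 lower with values as deposited. The filter kept genes with a mean level over the 6 pools of at least 6.21, and Prdm8, at 5.85 in Cyclin D1 -/- pools and 7.21 in wildtype pools, passed it through the wildtype pools. Since that contrast entered the choice of the genes, nothing is read from these counts. In rank of size Prdm8 was the tenth of the 287 called falls, next to Cenpf at -1.38 and, just beyond it, Ccna2 at -1.36 and Ube2c at -1.34. When pools 1 and 2 were averaged within each genotype, leaving 2 samples on either side, no Prdm gene was called.

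The other Prdm genes gave no call. Of 6 with a named probe set, 4 were too dim to test, and neither of the 2 tested passed by limma, nor had an unadjusted p under 0.05. Over all tested genes 4.66% passed and 1475 of 10916 had such an unadjusted p. Mecom, also called Prdm3, which acts in blood stem cells, averaged 6.49 ± 0.13 in Cyclin D1 -/- pools and 6.39 ± 0.27 in wildtype pools (log2 difference 0.09, limma adjusted p = 0.935). A dimmer Mecom probe set differed by 0.11 with overlapping groups. In the dimmest, at means of 4.91 in Cyclin D1 -/- pools and 5.01 in wildtype pools, the difference was -0.10 and the groups were apart. Prdm6, a repressor of smooth muscle genes, averaged 6.25 ± 0.18 in Cyclin D1 -/- pools and 6.18 ± 0.47 in wildtype pools (log2 difference 0.07, limma adjusted p = 0.962). Prdm9, which places recombination sites in germ cells, Prdm11, Prdm14, of primordial germ cells, and Prdm15 were untested, and the log2 differences of their brightest probe sets ran from -0.22 to 0.26. In none of these 4 were the genotypes apart.

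Genes of the amacrine and horizontal lineage are the setting of Prdm13 and of part of Prdm8. Of 19 tested, 6 fell, beside 2.63% of all tested genes, 1 rose, beside 2.03%, and 12 did not pass, with a median log2 difference of -0.34 beside 0.02 over all tested genes. Ptf1a, which acts upstream of Prdm13, averaged 5.54 ± 0.12 in Cyclin D1 -/- pools and 7.94 ± 0.34 in wildtype pools (limma adjusted p = 0.00108), and like Prdm8 it passed the filter on low signal through the wildtype pools. Foxn4, which acts upstream of Ptf1a, fell by 0.52 on the log2 scale (limma adjusted p = 0.0523), and its call was lost in 10 of 15 alternatives. Tfap2b, Meis2 and Gad1 fell as well, with log2 differences of -1.57, -0.85 and -0.81, while Calb2, the calcium-binding calretinin, rose with 0.40. Ebf3, a factor of amacrine subtypes that depend on Prdm13 in mice, averaged 7.68 ± 0.19 in Cyclin D1 -/- pools and 7.30 ± 0.14 in wildtype pools without passing the test (log2 difference 0.38, limma adjusted p = 0.283). The genotypes did not overlap in this probe set, nor in a dimmer one with a log2 difference of 0.54. In another, with 0.32, they overlapped, wildtype pool 3 reading 7.22 and Cyclin D1 -/- pool 2 7.14. The 6 and 1 became 4 and 0 without any 1 of Cyclin D1 -/- pools 1 and 2 and wildtype pool 1, and 2 and 0 with pools 1 and 2 averaged.

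Bipolar cell genes, the setting in which Prdm8 is needed and which Prdm1 restrains, did not pass the test. Of 10 tested none rose or fell by limma at an adjusted p of 0.1, beside 4.66% called of all tested genes. An unadjusted limma p under 0.05 was found for 1, beside 1475 of 10916 over all. The genotypes did not overlap in 3, beside 2182 of 10916. The median log2 difference was 0.06, and another 7 were too dim. With 10 genes these counts do not set the list apart from all tested genes. Irx5, a factor of cone bipolar cells, averaged 8.17 ± 0.24 in Cyclin D1 -/- pools and 8.65 ± 0.12 in wildtype pools (limma adjusted p = 0.146), and it was called lower without Cyclin D1 -/- pool 3 or without wildtype pool 3. Bhlhe22, the partner of Prdm8, had no named probe set. Otx2, which activates Prdm1 and also serves bipolar cells, averaged 11.03 ± 0.12 in Cyclin D1 -/- pools and 11.01 ± 0.12 in wildtype pools (log2 difference 0.02, limma adjusted p = 0.969). Cdh11, a cadherin gene that Prdm8 and Bhlhe22 repress in the mouse forebrain, averaged 8.26 ± 0.05 in Cyclin D1 -/- pools and 7.89 ± 0.25 in wildtype pools. Its groups did not overlap, but it did not pass the test (log2 difference 0.37, limma adjusted p = 0.282), and its other probe set differed by 0.11.

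Genes of the photoreceptor programme that Prdm1 promotes were mostly above wildtype in mean level, and Prdm1 itself did not separate after normalisation. Of 27 tested, 24 had a log2 difference above 0, beside 5930 of 10916 over all genes, and 4 rose and 1 fell by the test, beside 2.03% and 2.63% of all tested genes, with a median of 0.31. In 14 of the 27, Pdc, Gnb3, Pde6g and Crx among them, Cyclin D1 -/- pool 3 was the highest pool and wildtype pool 3 the lowest, the order of the lens marker sum given above, in which all 16 genes had a higher mean, with a median log2 difference of 2.39. The same count over all tested genes was not made, so nothing is read from the 14. Opn1sw, the largest rise of the list, did not share this order, with 10.38, 10.29 and 9.82 in Cyclin D1 -/- pools 1, 2 and 3. The part of lens tissue in the photoreceptor values was not tested. Pdc, phosducin, rose with a log2 difference of 0.83, Gnb3, a cone transducin subunit, with 0.50 and Opn1sw, the short-wave cone opsin, with 1.01 and Pde6g, a rod phosphodiesterase subunit, with 0.55, whereas Rorb, a factor upstream of the rod programme, fell by 0.48 on the log2 scale. Crx, the photoreceptor factor downstream of Otx2, averaged 9.67 ± 0.16 in Cyclin D1 -/- pools and 9.36 ± 0.04 in wildtype pools (log2 difference 0.31, limma adjusted p = 0.186). Its pools did not overlap in either of its 2 probe sets. The count of calls, 5, changed when single arrays were left out, being 1 without any 1 of Cyclin D1 -/- pools 1 and 2 and wildtype pool 2, 3 without Cyclin D1 -/- pool 3, and 11 without wildtype pool 3, and it was 0 with pools 1 and 2 averaged. The calls of Rorb, Gnb3, Opn1sw and Pde6g were lost in 6, 6, 7 and 10 of 15 alternatives.

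Among cofactors known to act with Prdm proteins, 2 of 19 tested genes passed, both lower, beside 2.63% of all tested genes, and the median log2 difference was -0.12. Both are subunits of the Polycomb complex that methylates histone H3. Suz12 averaged 8.43 ± 0.03 in Cyclin D1 -/- pools and 8.93 ± 0.05 in wildtype pools (limma adjusted p = 0.0227). Ezh2, its catalytic partner, averaged 8.35 ± 0.06 in Cyclin D1 -/- pools and 8.94 ± 0.22 in wildtype pools (limma adjusted p = 0.0542). The 2 calls became 0 without any 1 of Cyclin D1 -/- pools 1 and 2 and wildtype pools 1 and 2, 1 without Cyclin D1 -/- pool 3, and 7 when wildtype pool 3 was omitted. Values as deposited or median-centred gave 0. Prmt5, the enzyme that works with Prdm4, averaged 9.17 ± 0.14 in Cyclin D1 -/- pools and 9.02 ± 0.13 in wildtype pools (limma adjusted p = 0.684), and Rb1, whose protein binds Prdm2, 7.66 ± 0.05 in Cyclin D1 -/- pools and 8.11 ± 0.15 in wildtype pools (limma adjusted p = 0.108).

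**Figure D4:**
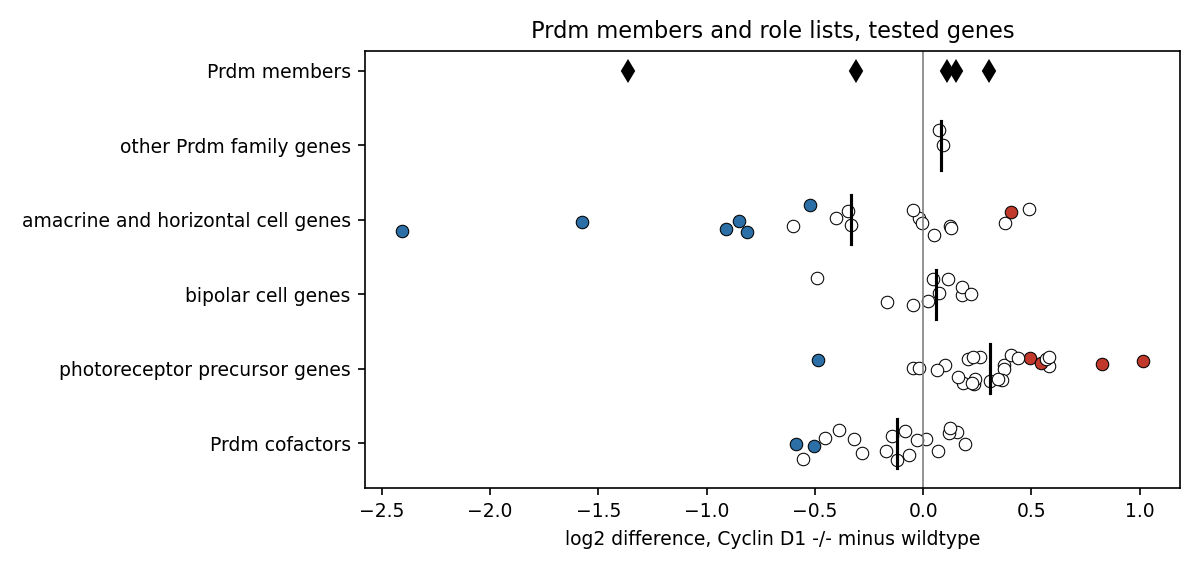
Log2 difference, Cyclin D1 -/- minus wildtype, of the tested Prdm members (black diamonds) and of each tested gene of 5 lists (circles). Red circles were called higher and blue circles lower in Cyclin D1 -/- pools at an adjusted p of 0.1, open circles were not called, and vertical bars are list medians. The amacrine and horizontal median lies at -0.34 and the photoreceptor median at 0.31.

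Among all tested genes, those whose levels followed Prdm8 most closely over the 6 pools were Racgap1, Ube2c, Cdc20, Espl1 and Cdca8. Likeness was the root mean square difference between log2 profiles, each centred on its own mean, and was 0.053, 0.058, 0.089, 0.11 and 0.11 for these genes, against a median of 0.74 over all tested genes. This ranking uses the Prdm8 values by which the gene was chosen, and all 5 shared its gap, with log2 differences of -1.34 to -1.19. Racgap1 works in cytokinesis, Ube2c and Cdc20 in the anaphase-promoting complex, Espl1 is separase and Cdca8 belongs to the chromosomal passenger complex. Within each genotype they shared with Prdm8 the order of pool 3, which was the highest of the Cyclin D1 -/- pools and the lowest of the wildtype pools. This shared order follows in part from their choice by nearness of profile. Racgap1 read 7.23, 7.18 and 7.54 in Cyclin D1 -/- pools and 8.79, 8.71 and 8.40 in wildtype pools. For Prdm1 the nearest profiles were those of Tmem42, Hsbp1, Derl1, Ptn and Map3k20, at 0.024 to 0.030 against a median of 0.21. Their spread over the pools was small, as that of Prdm1 was. Among the tested Prdm genes the profiles of Prdm1, Prdm2 and Prdm4 differed from each other by 0.23 to 0.34. Prdm8 differed from the others by 0.54 for Prdm2, 0.74 for Prdm1, 0.82 for Prdm4 and 0.99 for Prdm16.

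**Figure D5:**
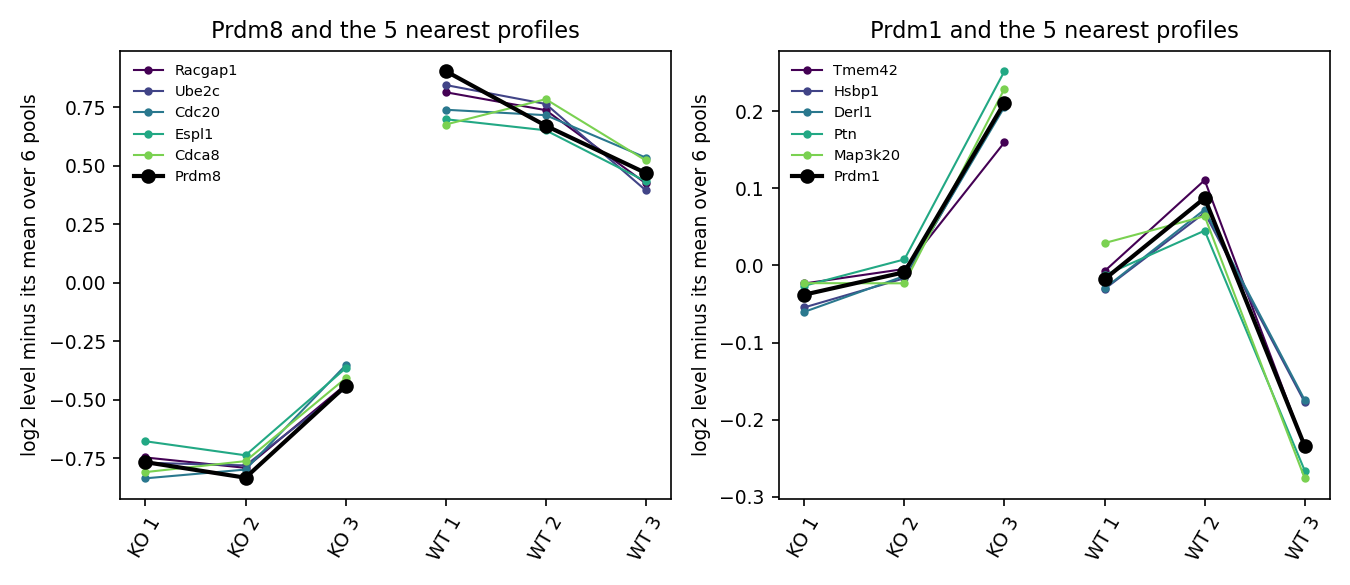
Log2 levels centred on the mean over 6 pools, for Prdm8 (left panel, black) and Prdm1 (right panel, black) with the 5 tested genes of nearest profile (colours), in Cyclin D1 -/- pools (KO) and wildtype pools (WT). The axes differ, and lines only join the pools of a genotype. The Prdm8 panel spans about the gap of -1.36 between genotypes, and the Prdm1 genotypes overlap.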

How the data were processed

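Expression was measured on 6 arrays, 3 of each genotype, and the authors deposited a linear intensity for every probe set. How probes were summarised and arrays scaled is not given in the sources used here. Per the labels, differences were called at a false discovery rate of 0.1. Of 45101 probe sets, 64 controls were left out. The platform annotation gave 34945 a single symbol, and these were used; 932 with more than 1 symbol and 9160 without a name were not. Symbols of 34741 were updated with RefSeq names.

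Values were quantile normalised, floored at 1 and taken to log2(value + 16), a scale that understates changes of dim genes. The brightest probe set stood for each gene, and 7277 genes, the dimmest 40%, were left untested. R 4.3.3 and limma 3.58.1 served for the two-sided test of the other 10916 (lmFit, eBayes with trend, no covariate, Benjamini-Hochberg). SEs of Prdm probe sets come from the pools' own spread. The fit was tested on simulated data with independent noise for each array, which leaves out any likeness between pools. Figures used matplotlib 3.10.9.

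The Prdm genes, the gene lists and the tests were chosen with earlier results of these data known. Genes are named by rule: all Prdm genes, Ccnd1, known partners, up to 4 called genes of smallest p per role list, and the 5 nearest profiles to Prdm8 and Prdm1. Calb2, Irx5, Pde6g, Prmt5, Rb1 and the marker genes Kdr, Cldn5 and Pmel were named after their values were seen. So were Cenpf, Ccna2 and Ube2c, as neighbours of Prdm8 in the ranking. Some genes that the rule would name are not reported here. Alternatives covered scaling, pseudocount, filter, probe set choice, blocks, averaged pools, threshold and leaving out each array.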

Additional observations from a re-analysis of the deposited data

How the results depend on the processing

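Of 15 alternatives, 14 called Prdm8 and no other Prdm gene. Prdm8 was chosen for its fall in these same arrays, so these calls are no support for it. The log2 difference of Prdm8 was -0.89 with a pseudocount of 64, which shrinks differences by construction, that of Prdm1 0.27 with values as deposited, and the mean of all probe sets gave -0.13 for Prdm2 and -0.022 for Prdm10. Leaving out each array in turn gave -1.48 to -1.25 for Prdm8, 0.02 to 0.18 for Prdm1, -0.39 to -0.24 for Prdm2, 0.05 to 0.29 for Prdm4, 0.13 to 0.25 for Prdm10 and -0.08 to 0.58 for Prdm16. Of the genes called over all, 509 became 291 with arrays centred on their medians, 322 at an adjusted p of 0.05, 1030 with the hybridisation control set as a block, 43 with pools 1 and 2 averaged, and 167 to 1917 without single arrays. The block was found in these same arrays and is no support.

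Counts of calls in lists, with the same settings, were as follows. Photoreceptor calls, 5, became 8 as deposited, 3 with median centring, 3 with no filter on dim genes, 15 with the control set as a block, 0 with averaged pools, 3 at 0.05 and 1 to 11 without single arrays. Cofactor calls, 2, became 0 as deposited and with median centring, 1 with the mean of all probe sets, 4 with the control set as a block, 0 with averaged pools, 1 at 0.05 and 0 to 7 without single arrays. Amacrine and horizontal calls, 7, became 2 with averaged pools and 4 to 10 without single arrays, and bipolar calls, 0, were 0 to 1 without single arrays. For all genes and lists the cause was not tested. Differences that changed sign were, beside those of Prdm10 and Prdm16 given above, those of Mecom (-0.018 with the control set as a block and with averaged pools, and -0.024 to 0.24 without single arrays, negative without wildtype pool 1), Prdm6 (-0.18 to 0.27, negative without wildtype pool 1) and Otx2 (-0.036 to 0.087, negative without Cyclin D1 -/- pool 1 or wildtype pool 3), none of them called.

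The replicate numbers are shared between genotypes. Deviations from the group mean correlated at 0.17, -0.35 and -0.48 for numbers 1, 2 and 3. With 3 pools per genotype these values cannot tell whether pools of the same number were prepared together. The main fit did not pair them. With the replicate block 269 genes were called, 3 of them photoreceptor genes and 0 cofactors. In this balanced design the block leaves each log2 difference as it was by construction.

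Signal over background could not be judged without detection calls, and dim values such as those of Prdm10, the lower pair of Prdm16 and Prdm8 in Cyclin D1 -/- pools are least certain.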
